A study of Mus musculus with 8 samples.

Results

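Interferon-stimulated genes are the genes whose transcription rises when a cell receives an interferon signal, and 39 of them were followed here across primary lung fibroblasts of wild-type mice that had been given TWEAK or left without it. They were taken by symbol from a list of classical members, and each of the 39 was found among the 52110 rows of the count table that carry a gene symbol. TWEAK is a cytokine of the tumour necrosis factor superfamily, encoded by Tnfsf12, that acts through the receptor Fn14, encoded by Tnfrsf12a. The cells, kept in medium with serum, received recombinant TWEAK protein at 10, 30 or 100 ng/ml for 48 hours, and the controls received none. Each of the 4 groups holds 2 libraries, so there are 8 in all. No label ties the 2 libraries of a group to separate animals or cultures, so the p-values describe only how far such libraries lie apart, and that spread may be technical. They also give neither age, sex nor strain of the mice, nor the source of the TWEAK protein.

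Type I and type III interferons act through receptors that activate the kinases JAK1 and TYK2, which phosphorylate STAT proteins. STAT2 and IRF9 are subunits of the complex ISGF3, which binds the interferon-stimulated response element (ISRE) in the promoters of its target genes. Interferon gamma uses a different receptor with JAK1 and JAK2, and its target genes carry the gamma-activated site (GAS). Fibroblasts also carry a low constitutive interferon tone that keeps many of these genes expressed without infection.

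The libraries held between 37345575 and 50896445 counts, and the 39 genes took between 0.081% and 0.149% of them. Values are CPM, counts divided by library size and scaled by the trimmed mean of M values (TMM), and 3 counts correspond to between 0.0590 and 0.0805 CPM. A low-count filter kept 17360 genes, all 39 members among them, although Oas1g passed only through its counts at 30 ng/ml. Genes were called at an adjusted p under 0.05 in the quasi-likelihood F test of edgeR, adjusted over all 17360 genes. Far more genes of the table were called at 10 and 30 ng/ml, 29.2% and 23.3%, than in the libraries labelled 100 ng/ml, with 1.12%. The marker lists held fibroblast genes in every library, with Pdgfra between 1249 and 1556 CPM. Ptprc, C1qa, Cd3e, Epcam and Siglech, single markers of leukocytes, macrophages, T cells, epithelium and plasmacytoid dendritic cells, were between 0 and 0.65 CPM. Other markers were higher: the macrophage list summed to between 29.4 and 71.8 CPM and the plasmacytoid dendritic list to between 239 and 585. In bulk RNA, fewer cells that express a gene and less of its RNA per cell cannot be told apart.

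At 10 ng/ml 15 of the 39 genes fell and none rose by edgeR's test, beside 14.2% of all tested genes that fell and 15.0% that rose. They were the 4 Ifit genes, Isg20, Mx2, Rsad2, Ifi27l2a, Trim30a, Irf9, Stat2, Usp18, Ifih1, Gbp7 and Iigp1. At 30 ng/ml 4 fell, namely Ifit2, Ifi27l2a, Stat2 and Irf9, and Parp14 rose, beside 10.7% and 12.6% of all genes. At 100 ng/ml 1 gene was called, Gbp7, which fell, beside 0.305% of all genes called lower. The median log2 change of the 39 genes was -0.65 at 10 ng/ml, -0.22 at 30 ng/ml and -0.63 at 100 ng/ml, while the median over all tested genes lay at 0.006, 0.006 and 0.002. Without Oas1g the medians of the other 38 genes were -0.60, -0.26 and -0.64 at the rising doses. The 3 comparisons share the untreated libraries. DESeq2 and limma-voom called 9 members each at 30 ng/ml, and 8 and 3 at 100 ng/ml. The share of all genes that these tools called is not set beside these counts, which show only that calls depend on the tool.

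Counted by sign alone, 32 of the 39 log2 changes were below 0 at 10 ng/ml, 26 at 30 ng/ml and 38 at 100 ng/ml, beside 49.5%, 49.4% and 49.5% of all genes. Without Oas1g, 31, 26 and 38 of the other 38 changes were below 0 at these doses. In 26 of the 39 both libraries at 10 ng/ml lay below both untreated libraries, beside 32.5% of all genes, and in 3 they lay above, beside 33.1%. At 30 ng/ml 16 lay below and 5 above, beside 30.9% and 32.4% of all genes, and 4 above without Oas1g. In the 100 ng/ml libraries 32 lay below and 0 above, beside 22.1% and 21.9%. The single call at 100 ng/ml stands beside 20 genes with an unadjusted p under 0.05, all of them lower, where 5.10% of all genes were lower at that level. Taken over the mean of the 3 doses, 14 genes were called, all lower, beside 11.6% of all genes.

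The counts of calls depended on single libraries. Leaving out a library can also change the calls over all genes, and those shares are not set beside the counts that follow. At 10 ng/ml 9 genes were called without untreated replicate 1 or without replicate 2 of that dose. At 30 ng/ml 1 and 3 were called without untreated replicates 1 and 2, and 10 without replicate 1 of that dose. At 100 ng/ml none was called without any one library of the untreated, 10 or 100 ng/ml groups, and 5 were called without either library at 30 ng/ml. Over the mean of the doses 5 and 8 were called without untreated replicates 1 and 2. By sign alone, between 30 and 33 of the 39 changes were below 0 at 10 ng/ml, between 19 and 32 at 30 ng/ml and between 34 and 39 at 100 ng/ml, whichever library was left out.

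Markers of cell types were also measured in these groups. The 10 fibroblast markers summed to 33620 and 32430 CPM untreated, to between 17500 and 21540 CPM at 10 and 30 ng/ml, and to 30470 and 31030 CPM at 100 ng/ml, and at 10 ng/ml 7 of the 10 fell and 3 rose. The 10 macrophage markers, of which 8 were tested, summed to 33.3 and 29.4 CPM untreated. Their sums were between 54.0 and 71.8 CPM at 10 and 30 ng/ml and 46.5 and 50.1 CPM at 100 ng/ml. Cd14 and Lyz2 were the largest and C1qa was at 0. Of the 8 tested, 3 rose and 0 fell at 10 ng/ml, beside 15.0% and 14.2% of all genes. At 30 ng/ml 2 rose and 0 fell, beside 12.6% and 10.7%. At 100 ng/ml 1 rose and 0 fell, beside 0.812% and 0.305%, and all 8 changes were above 0. The mesothelial list summed to 17.5 and 16.7 CPM untreated, to 7.72 and 5.42 at 10 ng/ml, 5.88 and 6.35 at 30 ng/ml, and 11.0 and 14.6 at 100 ng/ml, and at 10 ng/ml 3 of its 5 tested genes fell, Upk3b, Lrrn4 and Upk1b, while Msln was at 0 in both libraries. The plasmacytoid dendritic list holds Bst2, itself one of the 39 genes, at 117 and 80.1 CPM untreated and 143 and 109 at 10 ng/ml. This list summed to 239 and 247 CPM untreated and to 585 and 544 at 10 ng/ml. Its sums were 561 and 459 at 30 ng/ml and 310 and 320 at 100 ng/ml. Of its 4 tested genes Spib and Irf8 were called higher at 10 ng/ml, and Spib, at 0.20 and 0.56 CPM untreated and 301 and 280 at 10 ng/ml, made up most of the sum's difference. Smooth muscle and pericyte markers summed to between 571 and 874 CPM, endothelial markers to between 5.83 and 7.69, epithelial markers to between 0.650 and 2.22 and lymphocyte markers to between 0 and 0.683. These sums can hide opposite changes. At 10 ng/ml 3 of 7 tested smooth muscle and pericyte markers rose and 2 fell. Of 4 tested endothelial markers 1 rose and 1 fell at that dose. The part of these markers in the changes of the 39 genes was not tested.

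**Figure D1:**
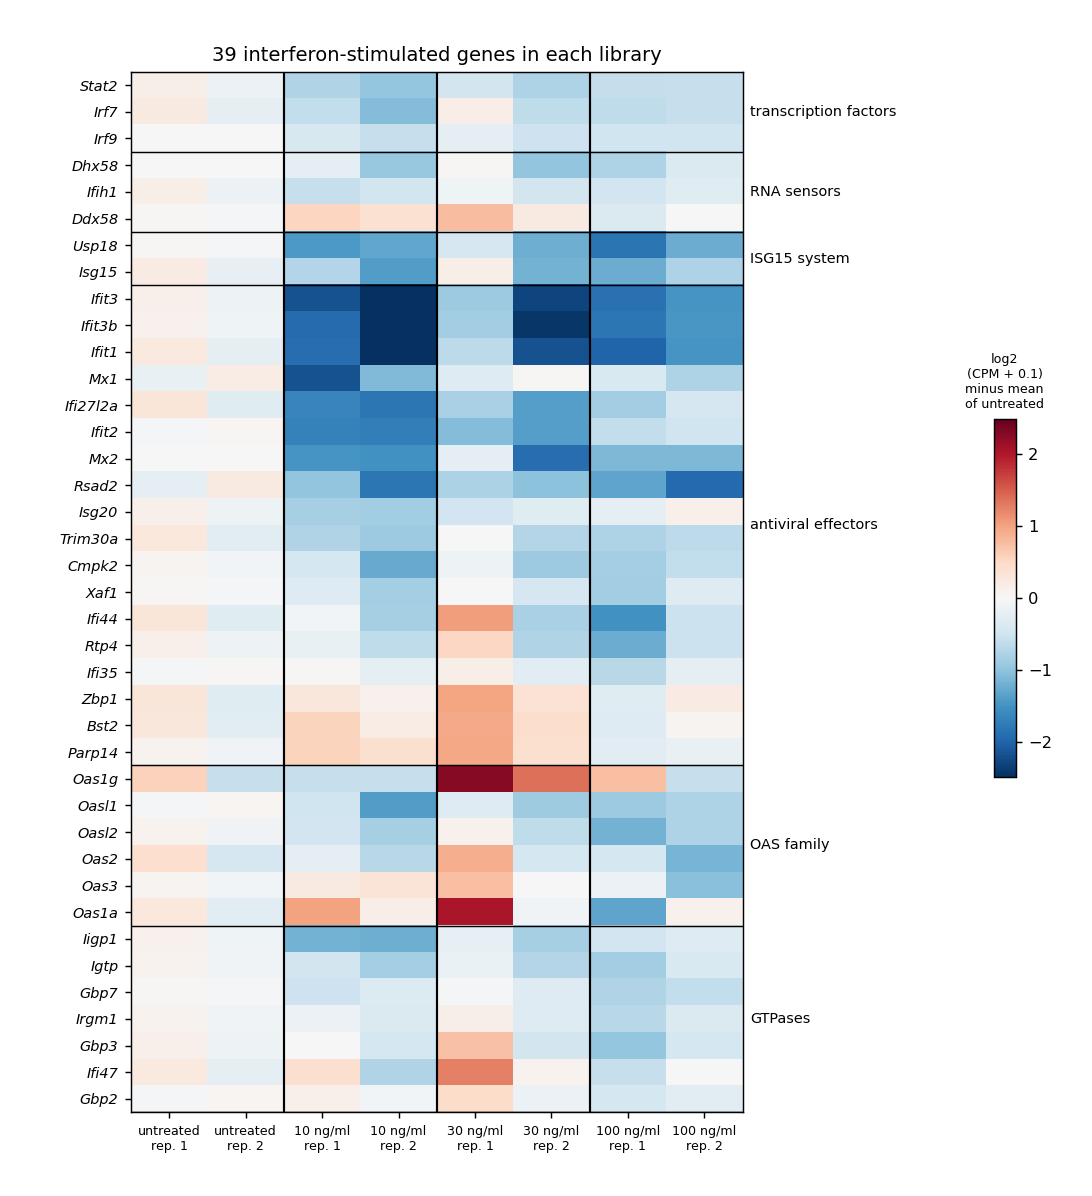
Level of each of the 39 genes in each of the 8 libraries, as log2(CPM + 0.1) minus the mean of the 2 untreated libraries, with genes grouped by role and ordered by their change at 10 ng/ml. The Ifit genes are below untreated in all 6 TWEAK libraries, and replicate 1 at 30 ng/ml is redder than replicate 2 for 37 of the 39 genes.

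The transcription factors of the list carry the interferon signal to the promoters. Stat2, a subunit of ISGF3 (chr10:128270559-128292849), stood at 126 and 104 CPM in the untreated libraries, 67.6 and 58.6 at 10 ng/ml, 82.8 and 67.3 at 30 ng/ml and 76 and 76.4 at 100 ng/ml. All 6 TWEAK libraries lay below both untreated ones, and the log2 change was -0.87 ± 0.13 (SE, adjusted p = 0.00186) at 10 ng/ml, -0.62 ± 0.13 (SE, adjusted p = 0.0118) at 30 ng/ml and -0.59 ± 0.13 (SE, adjusted p = 0.0979) at 100 ng/ml. Irf9, the DNA-binding subunit of the same complex, stood at 55.5 and 56.6 CPM in the untreated libraries, 42.6 and 37.6 at 10 ng/ml, 47.2 and 39 at 30 ng/ml and 39.9 and 39.4 at 100 ng/ml. Here too every TWEAK library was below every untreated one, with log2 changes of -0.48 ± 0.11 (SE, adjusted p = 0.0119) at 10 ng/ml and -0.38 ± 0.11 (SE, adjusted p = 0.0398) at 30 ng/ml. Its change at 100 ng/ml of -0.50 ± 0.11 was of similar size and was not called (adjusted p = 0.0936). Irf7, which amplifies interferon production and is itself induced, was not called at any dose, with 20.3 and 14.7 CPM untreated and 11.3 and 8.06 at 10 ng/ml, a log2 change of -0.86 ± 0.29 (SE, adjusted p = 0.0597). Irf9 shares 123 exonic bases with Rnf31 on the same strand, and Irf7 shares 45 with Phrf1 on the opposite strand. It is not stated whether counting used strand, which could separate only the latter pair. The Irf9 call at 10 ng/ml was lost without untreated replicate 1 (0.0519), untreated replicate 2 (0.0602) or 10 ng/ml replicate 2 (0.0741), with the adjusted p in brackets, and that at 30 ng/ml without untreated replicate 1 (0.13), untreated replicate 2 (0.15), 30 ng/ml replicate 2 (0.196), 100 ng/ml replicate 1 (0.0607) or 100 ng/ml replicate 2 (0.0605), with library totals in place of TMM (0.0535), with no low-count filter (0.0578) and in a fit of those 2 groups alone (0.0597). The Stat2 call at 30 ng/ml was lost without untreated replicate 1 (0.0787) or 30 ng/ml replicate 2 (0.0673).

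Promoter sequences of 9 of the genes are given because they hold the core letters of the element through which ISGF3 acts. They are a selection from the 18 members with such letters. Most are members that fell at 10 ng/ml, and Isg15 and Bst2 did not pass the test there. RefSeq promoters on GRCm38.p6, from 250 bases before to 50 after a gene start, were at hand for 29 of the 39 genes. The ISRE core, spelled GAAA, any 2 bases and GAAA, was searched on both strands, and on the other strand it reads TTTC, any 2 bases and TTTC. Each line gives the stretch around the core matches before the gene start, 5′ to 3′ on the gene's strand, with the matches in capitals.
Ifit1: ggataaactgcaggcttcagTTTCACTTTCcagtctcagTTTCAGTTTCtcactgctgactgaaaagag
Ifit3: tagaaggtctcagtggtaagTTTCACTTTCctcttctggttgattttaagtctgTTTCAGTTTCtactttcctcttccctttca
Ifit3b: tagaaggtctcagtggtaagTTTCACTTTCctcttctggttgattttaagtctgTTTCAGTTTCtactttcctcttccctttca
Rsad2: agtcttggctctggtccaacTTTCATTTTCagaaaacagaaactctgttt
Stat2: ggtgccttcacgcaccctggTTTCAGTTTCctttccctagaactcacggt
Trim30a: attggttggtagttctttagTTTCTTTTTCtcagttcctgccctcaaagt
Gbp7: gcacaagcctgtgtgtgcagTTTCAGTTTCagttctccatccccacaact
Isg15: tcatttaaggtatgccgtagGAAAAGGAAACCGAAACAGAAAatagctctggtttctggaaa
Bst2: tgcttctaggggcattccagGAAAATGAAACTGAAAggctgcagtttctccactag
These stretches are chr19:34640765-34640833 for Ifit1, chr19:34583353-34583436 for Ifit3, chr19:34607749-34607832 for Ifit3b, chr10:128270256-128270305 for Stat2 and chr3:142530263-142530312 for Gbp7, all on the plus strand. On the minus strand lie chr12:26456543-26456592 for Rsad2, chr7:104465200-104465249 for Trim30a, chr4:156200855-156200916 for Isg15 and chr8:71537567-71537622 for Bst2. Ifit3 and Ifit3b share the whole printed stretch, and their promoters have a run of 169 identical bases.

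An ISRE core stood in 18 of the 29 promoters (62.1%), against 3.99% of the promoters of 27025 genes in the same RefSeq table. With a C added after the second GAAA it stood in 15 of 29 against 0.944%, and every such match is also a match to the shorter core. The GAS letters TTCNNNGAA were found in 7 of 29 (24.1%) against 9.55%. The kappa B letters, GGG, any 2 bases and TTTCC, were in 0 of 29, where 1.89% of all genes had them. They spell a form of the sites bound by the NF-kappa B factors that TWEAK is known to activate. At so low a share, 0 of 29 cannot tell these genes from all genes. It does not show that they lack such sites. Of the 18 with an ISRE core 8 were called at 10 ng/ml, and the median log2 change of the 18 was -0.59. Of the 11 without one 3 were called, Ifit2, Isg20 and Irf9, and the median of the 11 was -0.65. Rsad2 holds the shorter core and not the longer one. A match of letters is a description of the window, and no binding was measured.

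The 3 RNA sensors detect viral RNA in the cytoplasm and start interferon production. Ifih1, which encodes MDA5, stood at 37.6 and 30.8 CPM in the untreated libraries, 22.8 and 24.8 at 10 ng/ml, 31.4 and 24.6 at 30 ng/ml and 24.5 and 27.6 at 100 ng/ml. It fell at 10 ng/ml, with a log2 change of -0.52 ± 0.15 (SE, adjusted p = 0.0336), and at 30 ng/ml replicate 1 lay within the untreated range. The call was lost without untreated replicate 1 (0.195), 10 ng/ml replicate 1 (0.15) or 10 ng/ml replicate 2 (0.0811). Ddx58, which encodes RIG-I, stood at 82.5 and 79.5 CPM in the untreated libraries, 117 and 106 at 10 ng/ml, 138 and 94.4 at 30 ng/ml and 63.0 and 81.4 at 100 ng/ml. The 4 libraries at 10 and 30 ng/ml were above both untreated libraries, and neither change was called by edgeR, with 0.46 ± 0.18 (SE, adjusted p = 0.0991) and 0.52 ± 0.18 (SE, adjusted p = 0.0804). Dhx58, which encodes LGP2, a regulator of the other two sensors, was not called at any dose and changed by -0.55 ± 0.35, -0.39 ± 0.35 and -0.55 ± 0.35 at the rising doses.

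ISG15 is a ubiquitin-like protein, and USP18 removes it from its targets and also restrains signalling at the type I interferon receptor. Usp18 stood at 20.5 and 19.5 CPM in the untreated libraries, 7.32 and 8.02 at 10 ng/ml, 14.9 and 8.50 at 30 ng/ml and 5.58 and 8.43 at 100 ng/ml, so that every TWEAK library was below both untreated ones. It fell by 1.38 ± 0.28 (SE, adjusted p = 0.00775) at 10 ng/ml, a 2.61-fold lower level, and its changes of -0.77 ± 0.28 (SE, adjusted p = 0.0858) at 30 ng/ml and -1.51 ± 0.28 (SE, adjusted p = 0.0597) at 100 ng/ml were not called. The call at 10 ng/ml was lost without 10 ng/ml replicate 1 (0.0503). Isg15 stood at 33.4 and 24.9 CPM in the untreated libraries, 17.3 and 10.9 at 10 ng/ml, 32.1 and 12.6 at 30 ng/ml and 12.1 and 16.9 at 100 ng/ml. Replicate 1 at 30 ng/ml lay between the untreated libraries while the other 5 TWEAK libraries lay below them, and no change of Isg15 was called, with -1.05 ± 0.42 (SE, adjusted p = 0.105) at 10 ng/ml.

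**Figure D2:**
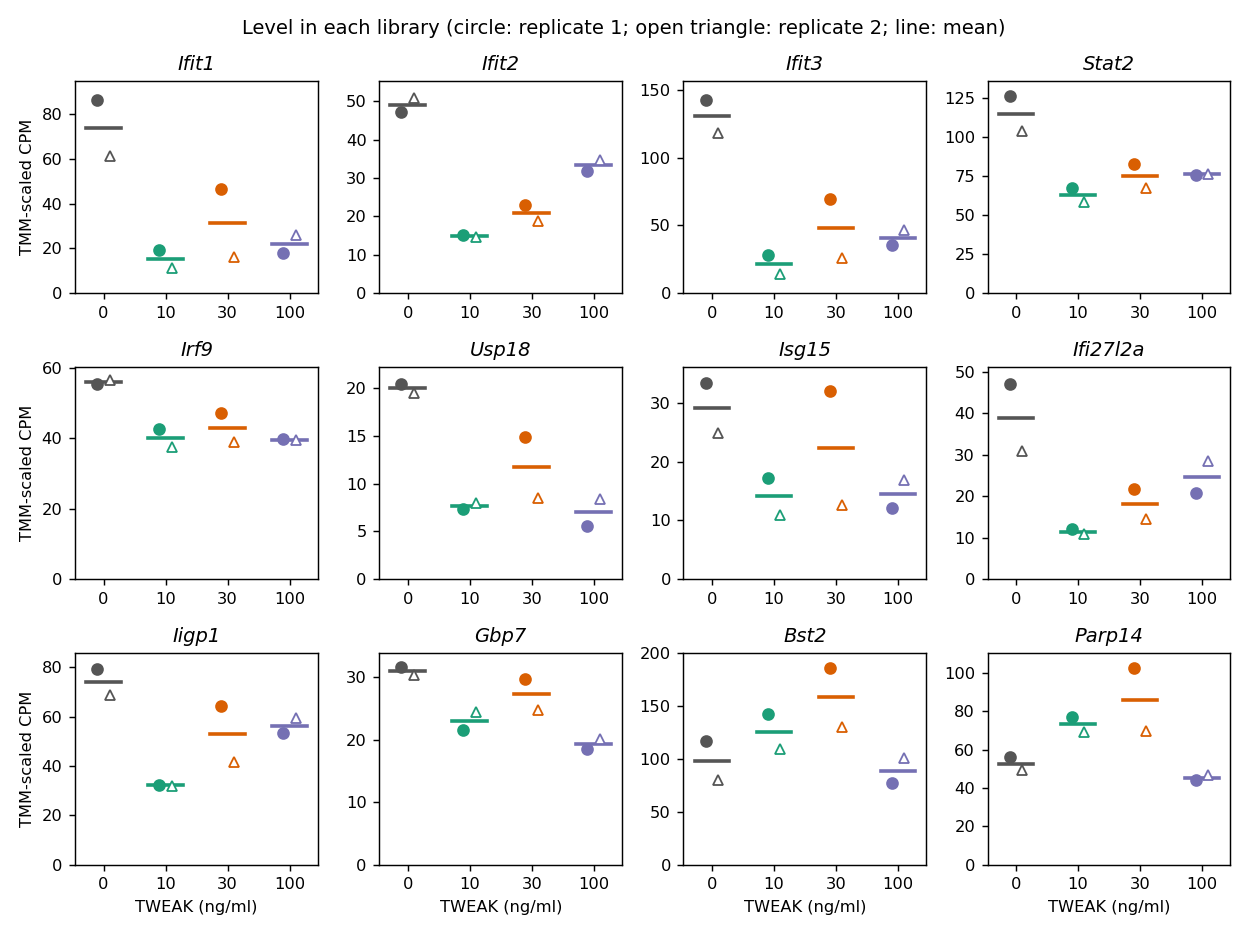
TMM-scaled CPM of 12 of the 39 genes in every library, against TWEAK dose in ng/ml, with a filled circle for replicate 1, an open triangle for replicate 2 and a line for the group mean. Ifit2 was lowest at 10 ng/ml and higher at each further dose, while Bst2 and Parp14 were highest at 30 ng/ml.

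The Ifit genes encode proteins that bind viral RNA and block its translation, and 3 of them had the largest falls that were called. They lie next to each other on chromosome 19, Ifit2 at chr19:34550694-34576419, Ifit3 at chr19:34583531-34588731, Ifit3b at chr19:34607970-34613401 and Ifit1 at chr19:34640871-34650009. Ifit3 stood at 143 and 118 CPM in the untreated libraries, 28.6 and 14.4 at 10 ng/ml, 69.6 and 26.2 at 30 ng/ml and 35.6 and 46.5 at 100 ng/ml. The level at 10 ng/ml, 21.5 ± 9.99 CPM against 130.5 ± 17.3 untreated (SD, n = 2), was 6.08-fold lower, a log2 change of -2.60 ± 0.47 (SE, adjusted p = 0.00449). At 30 ng/ml its replicates were 2.65-fold apart and the change of -1.44 ± 0.45 (SE, adjusted p = 0.0549) missed the threshold. The change at 100 ng/ml of -1.67 ± 0.46 (SE, adjusted p = 0.174) was not called either, although no TWEAK library reached the untreated range.

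Ifit1 stood at 86.4 and 61.2 CPM in the untreated libraries, 19.5 and 11.4 at 10 ng/ml, 46.3 and 16.0 at 30 ng/ml and 18.1 and 26.2 at 100 ng/ml. Its log2 change was -2.26 ± 0.49 (SE, adjusted p = 0.0103) at 10 ng/ml, and -1.24 ± 0.47 (SE, adjusted p = 0.102) at 30 ng/ml and -1.74 ± 0.48 (SE, adjusted p = 0.179) at 100 ng/ml were not called. The call at 10 ng/ml was lost without untreated replicate 1 (0.0509) or 10 ng/ml replicate 2 (0.0713). Ifit3b stood at 40.1 and 34.0 CPM in the untreated libraries, 9.67 and 4.70 at 10 ng/ml, 20.1 and 6.75 at 30 ng/ml and 10.5 and 13.4 at 100 ng/ml, in the same order as Ifit3, and fell by 2.37 ± 0.51 (SE, adjusted p = 0.00959) at 10 ng/ml, a call lost without 10 ng/ml replicate 2 (0.0606). Of the 50-base words in Ifit3 transcripts 51.2% also occur in Ifit3b, so reads may be split between them and their separate values are uncertain.

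Ifit2, which can also promote apoptosis, was the member with the closest replicates among the Ifit genes. It stood at 47.1 and 50.8 CPM in the untreated libraries, 15.1 and 14.8 at 10 ng/ml, 23.1 and 18.9 at 30 ng/ml and 31.9 and 34.8 at 100 ng/ml. The groups did not overlap, and the level was lowest at 10 ng/ml. Ifit2 changed by -1.71 ± 0.12 (SE, adjusted p = 3.11e-05) at 10 ng/ml, 3.28-fold, and by -1.22 ± 0.12 (SE, adjusted p = 0.000218) at 30 ng/ml, 2.33-fold. The change at 100 ng/ml was -0.55 ± 0.11 (SE, adjusted p = 0.0815). Both calls were kept under every alternative tested and with each library left out.

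Further antiviral effectors fell at 10 ng/ml. Ifi27l2a, which encodes a small interferon-induced protein, stood at 47.0 and 30.8 CPM in the untreated libraries, 12.04 and 10.8 at 10 ng/ml, 21.8 and 14.6 at 30 ng/ml and 20.7 and 28.5 at 100 ng/ml. It changed by -1.77 ± 0.27 (SE, adjusted p = 0.00181) at 10 ng/ml and -1.10 ± 0.26 (SE, adjusted p = 0.0193) at 30 ng/ml, and at 100 ng/ml its highest library was below the lowest untreated one. The call at 30 ng/ml was lost without untreated replicate 1 (0.119) or 30 ng/ml replicate 2 (0.0967). Isg20, an exonuclease that degrades viral RNA, stood at 16.4 and 13.6 CPM in the untreated libraries, 8.36 and 8.13 at 10 ng/ml, 10.7 and 12.1 at 30 ng/ml and 12.7 and 16.4 at 100 ng/ml. It fell at 10 ng/ml, with a log2 change of -0.87 ± 0.17 (SE, adjusted p = 0.00593), and overlapped with untreated cells at 100 ng/ml. Trim30a, which restrains Toll-like receptor signalling, stood at 25.3 and 17.7 CPM in the untreated libraries, 12.6 and 11.2 at 10 ng/ml, 21.4 and 12.6 at 30 ng/ml and 12.3 and 13.4 at 100 ng/ml, and fell at 10 ng/ml with a log2 change of -0.86 ± 0.26 (SE, adjusted p = 0.0408).

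Rsad2 encodes viperin, an enzyme that makes a chain-terminating nucleotide, and stood at 3.17 and 4.41 CPM in the untreated libraries, 1.84 and 1.005 at 10 ng/ml, 2.14 and 1.79 at 30 ng/ml and 1.43 and 0.900 at 100 ng/ml. The 6 TWEAK libraries lay below both untreated ones, with -1.42 ± 0.37 (SE, adjusted p = 0.0240) at 10 ng/ml and, not called, -1.70 ± 0.38 (SE, adjusted p = 0.101) at 100 ng/ml. Mx2 encodes a dynamin-like antiviral GTPase, and stood at 6.65 and 6.48 CPM in the untreated libraries, 2.30 and 2.22 at 10 ng/ml, 5.505 and 1.68 at 30 ng/ml and 2.96 and 2.95 at 100 ng/ml. It changed by -1.54 ± 0.46 (SE, adjusted p = 0.0385) at 10 ng/ml, and at 30 ng/ml its replicates differed 3.28-fold. The Rsad2 call was lost without untreated replicate 2 (0.126) or 10 ng/ml replicate 2 (0.115). The Mx2 call was lost with no low-count filter (0.059) and without untreated replicate 1 (0.115), untreated replicate 2 (0.103), 10 ng/ml replicate 1 (0.136), 10 ng/ml replicate 2 (0.142), 100 ng/ml replicate 1 (0.0579) or 100 ng/ml replicate 2 (0.0592). The Trim30a call was lost with no low-count filter (0.0631) and without untreated replicate 1 (0.225), 10 ng/ml replicate 1 (0.108), 10 ng/ml replicate 2 (0.164), 100 ng/ml replicate 1 (0.0615) or 100 ng/ml replicate 2 (0.062). GENCODE M21 lists Mx2 as a polymorphic pseudogene. Mx1, its antiviral relative, was near the limit of counting, between 0.0801 and 0.822 CPM.

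Parp14, an ADP-ribosyltransferase, was the single member that edgeR called higher at any dose with all libraries kept. It stood at 56.1 and 49.3 CPM in the untreated libraries, 77.0 and 69.0 at 10 ng/ml, 102 and 69.6 at 30 ng/ml and 44.1 and 46.5 at 100 ng/ml. The libraries at 10 and 30 ng/ml lay above both untreated ones and those at 100 ng/ml below, and the log2 change was 0.47 ± 0.17 (SE, adjusted p = 0.0726) at 10 ng/ml, 0.71 ± 0.17 (SE, adjusted p = 0.0193) at 30 ng/ml and -0.22 ± 0.17 (SE, adjusted p = 0.688) at 100 ng/ml. The call at 30 ng/ml was lost without untreated replicate 1 (0.0545), untreated replicate 2 (0.116) or 30 ng/ml replicate 1 (0.0738), and in a fit of those 2 groups alone (0.0511). Upward calls at 10 ng/ml depended on the setting: Parp14 and Ddx58 were called higher there by DESeq2, in a fit of those 2 groups alone, and by edgeR without either library at 30 ng/ml. DESeq2 called Ddx58 and Zbp1 higher beside Parp14 at 30 ng/ml. Bst2, which encodes tetherin, a protein that holds budding virus at the cell surface, stood at 117 and 80.1 CPM in the untreated libraries, 143 and 109 at 10 ng/ml, 186 and 131 at 30 ng/ml and 77.1 and 101 at 100 ng/ml. Both libraries at 30 ng/ml were above the untreated range, and the change of 0.68 ± 0.24 (SE, adjusted p = 0.0838) was not called. Zbp1, a sensor of Z-form nucleic acids that triggers cell death, stood at 31.7 and 21.0 CPM in the untreated libraries, 31.3 and 27.8 at 10 ng/ml, 51.4 and 33.4 at 30 ng/ml and 21.0 and 29.6 at 100 ng/ml, and was likewise above untreated in both libraries at 30 ng/ml, by 0.69 ± 0.27 (SE, adjusted p = 0.110).

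The remaining effectors Cmpk2, Xaf1, Rtp4, Ifi35 and Ifi44 were not called at any dose, and their log2 changes ranged from -0.82 (Cmpk2) to -0.10 (Ifi35) at 10 ng/ml and from -0.99 (Ifi44) to -0.46 (Ifi35) at 100 ng/ml. At 100 ng/ml both libraries of each of the 5 were below both untreated libraries. Ifi44 stood at 15.1 and 9.81 CPM in the untreated libraries, 11.6 and 6.80 at 10 ng/ml, 25.3 and 6.92 at 30 ng/ml and 4.17 and 8.33 at 100 ng/ml, so that replicate 1 at 30 ng/ml was the highest of all 8 libraries and replicate 2 was below both untreated ones. Rtp4 shares 11.6% of its 50-base words with Gm45338, and its counts are uncertain to that extent. Ifi35 shares 16.8% of its exonic bases with Gm11626 on the opposite strand, so its counts may depend on whether strand was used.

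The oligoadenylate synthetases (OAS) make the messenger that activates RNase L, and none of the 6 members of this family was called at any dose. Oasl2 was the most abundant of them per length and stood at 55.8 and 49.5 CPM in the untreated libraries, 37.9 and 29.4 at 10 ng/ml, 56.5 and 33.6 at 30 ng/ml and 23.1 and 30.9 at 100 ng/ml. Its 10 and 100 ng/ml libraries were below both untreated ones, with changes of -0.65 ± 0.25 (SE, adjusted p = 0.0931) and -0.96 ± 0.25 (SE, adjusted p = 0.156). Oas1a stood at 1.48 and 1.003 CPM in the untreated libraries, 2.56 and 1.38 at 10 ng/ml, 5.33 and 1.13 at 30 ng/ml and 0.427 and 1.33 at 100 ng/ml, highest in replicate 1 at 30 ng/ml, and changed by 1.38 ± 0.75 (SE, adjusted p = 0.243) there. Oas1g had 6 and 0 counts untreated, 0 and 0 at 10 ng/ml, 28 and 12 at 30 ng/ml, and 6 and 0 at 100 ng/ml, too few for a fold change. Oas1a and Oas1g share sequence, with 57.6% of the 50-base words of Oas1a also in Oas1g, and reads could be assigned to either. Oasl1, Oas2 and Oas3 stayed under 5 CPM in every library.

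The 7 GTPases are the guanylate-binding proteins and immunity-related GTPases that attack the vacuoles of intracellular pathogens. Iigp1 stood at 79.5 and 68.8 CPM in the untreated libraries, 32.5 and 31.9 at 10 ng/ml, 64.2 and 41.5 at 30 ng/ml and 53.2 and 59.4 at 100 ng/ml. It was lowest at 10 ng/ml, where it fell 2.30-fold, a log2 change of -1.20 ± 0.19 (SE, adjusted p = 0.00208), and all 6 TWEAK libraries were below the untreated ones. Gbp7 stood at 31.7 and 30.4 CPM in the untreated libraries, 21.5 and 24.4 at 10 ng/ml, 29.8 and 24.8 at 30 ng/ml and 18.5 and 20.1 at 100 ng/ml, with a change of -0.43 ± 0.12 (SE, adjusted p = 0.0281) at 10 ng/ml and -0.68 ± 0.12 (SE, adjusted p = 0.0458) at 100 ng/ml. Gbp7 was the single member called at 100 ng/ml, and that call was lost without untreated replicate 1 (0.233), untreated replicate 2 (0.173), 10 ng/ml replicate 1 (0.0681), 10 ng/ml replicate 2 (0.0675), 100 ng/ml replicate 1 (0.235) or 100 ng/ml replicate 2 (0.146), and with no low-count filter (0.07). Its call at 10 ng/ml was lost without untreated replicate 1 (0.129), untreated replicate 2 (0.0808) or 10 ng/ml replicate 1 (0.142). Ifi47, also called IRG-47, stood at 13.5 and 9.51 CPM in the untreated libraries, 14.9 and 6.68 at 10 ng/ml, 27.1 and 12.1 at 30 ng/ml and 7.59 and 11.3 at 100 ng/ml, overlapped with untreated cells at every dose and was not called. Gbp2, Gbp3, Irgm1 and Igtp were not called at any dose, and at 100 ng/ml both libraries of each lay below both untreated ones. Gbp7 shares 12.7% of its 50-base words with other genes and Igtp 11.8%, which makes their counts uncertain to that extent.

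**Figure D3:**
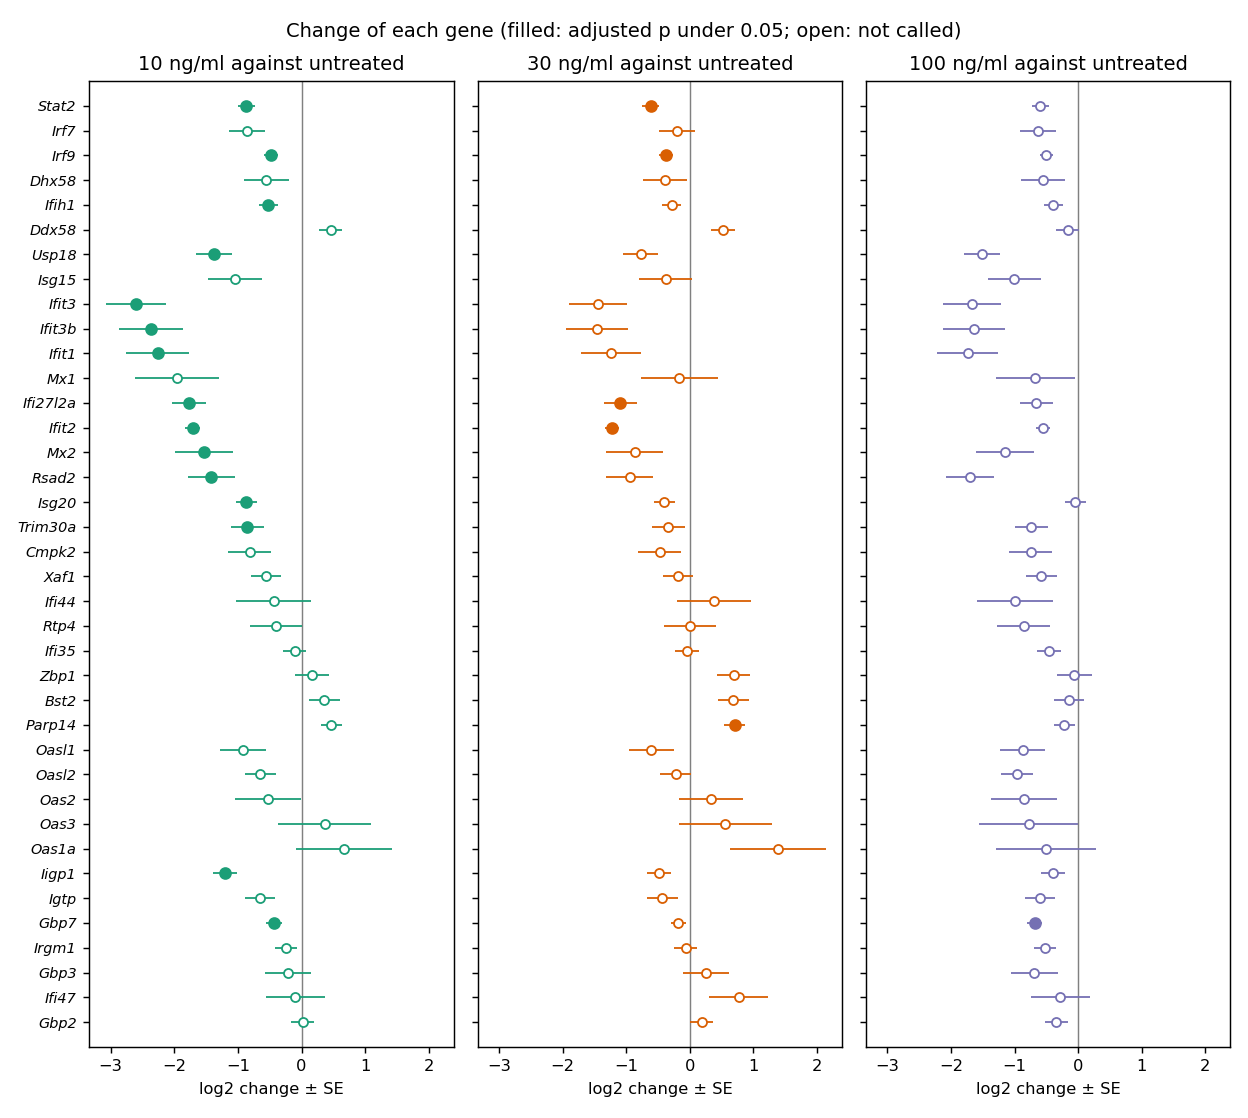
Log2 change against untreated cells, with its SE, for 38 of the 39 genes at 10, 30 and 100 ng/ml (Oas1g, with 0 counts at 10 ng/ml, is left out), filled where the adjusted p is under 0.05. The filled points number 15, 5 and 1, and at 100 ng/ml all 38 points lie below 0.

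Per kilobase of exon in GENCODE M21, untreated levels of the 39 genes ran from 0.0256 CPM per kb for Oas1g to 109 for Bst2, with a median of 7.17. Next to Bst2 stood Ifi27l2a at 84.0 and Ifit3 at 74.8 CPM per kb. At 10 ng/ml these were 139.6 for Bst2, 24.6 for Ifi27l2a and 12.3 for Ifit3, so the order of these 3 was kept while the distance between Bst2 and the others grew. The genes lie on 14 chromosomes, with 6 each on chromosomes 5 (the OAS family) and 11, and 4 each on chromosomes 3, 16 and 19.

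Directly between the doses, none of the 39 genes was called at 30 against 10 ng/ml by edgeR (0% of all genes were), 7 had an unadjusted p under 0.05 and were higher at 30 ng/ml, beside 4.29% of all genes, limma-voom called 0 and DESeq2 1. Oas1g is 1 of those 7, and since it passed the filter only through its counts at 30 ng/ml its higher level there is set aside. The other 38 changes all had the sign of a higher level at 30 ng/ml, with a median of 0.464, beside 51.0% of all genes. That count rests on 1 library: without replicate 1 at 30 ng/ml, 19 of the 38 were higher and 19 lower, with a median of 0.001. In 9 of the 38 genes both libraries at 30 ng/ml lay above both at 10 ng/ml, beside 18.5% of all genes, among them Ifit2, Isg20, Ifi27l2a, Iigp1 and Gbp7.

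At 100 against 10 ng/ml 4 genes were higher and 2 lower, beside 10.7% and 11.2% of all genes. Those higher at 100 ng/ml were Ifit2, by 1.16 ± 0.12 (SE, adjusted p = 0.000363), Ifi27l2a, by 1.11 ± 0.27 (SE, adjusted p = 0.0212), Isg20, by 0.82 ± 0.17 (SE, adjusted p = 0.0109), and Iigp1, by 0.81 ± 0.19 (SE, adjusted p = 0.0185). Those lower were Parp14, with a log2 change of -0.69 ± 0.17 (SE, adjusted p = 0.0233), and Ddx58, with -0.63 ± 0.18 (SE, adjusted p = 0.0450). Over the 39 genes the median was -0.015, with 20 changes below and 19 above 0, beside 50.1% of all genes below. Of the 6 calls only that of Ifit2 was kept with each library left out. That of Isg20 was lost without 10 ng/ml replicate 2 (0.0568) or 100 ng/ml replicate 2 (0.0672), that of Ifi27l2a without 10 ng/ml replicate 1 (0.0767), 10 ng/ml replicate 2 (0.108) or 100 ng/ml replicate 2 (0.113) and that of Iigp1 without 10 ng/ml replicate 1 (0.0803), 10 ng/ml replicate 2 (0.0858) or 100 ng/ml replicate 2 (0.0888). The Parp14 call was lost without 10 ng/ml replicate 1 (0.12), 10 ng/ml replicate 2 (0.0558), 100 ng/ml replicate 1 (0.116) or 100 ng/ml replicate 2 (0.0817), and the Ddx58 call without untreated replicate 1 (0.069), untreated replicate 2 (0.0689), 10 ng/ml replicate 1 (0.187), 10 ng/ml replicate 2 (0.0932) or 100 ng/ml replicate 1 (0.224), and with no low-count filter (0.0705). In all 2 calls were left without replicate 1 at 10 ng/ml or replicate 2 at 100 ng/ml, and 1 without replicate 2 at 10 ng/ml.

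At 100 against 30 ng/ml Ifit2 was higher, by 0.67 ± 0.12 (SE, adjusted p = 0.00690), and Parp14, Ddx58 and Gbp7 were lower, with log2 changes of -0.92 ± 0.17 (SE, adjusted p = 0.00896), -0.69 ± 0.18 (SE, adjusted p = 0.0421) and -0.50 ± 0.12 (SE, adjusted p = 0.0277). This was 1 of 39 higher and 3 lower, beside 7.15% and 8.04% of all genes. Without Oas1g, 33 of 38 were lower at 100 than at 30 ng/ml by sign, with a median of -0.47, beside 51.0% of all genes. Without replicate 1 at 30 ng/ml 20 of those 38 were lower and 18 higher, with a median of -0.11. Over all 39 genes the median was -0.49 with all libraries kept, -0.15 without replicate 1 at 30 ng/ml and -0.78 without replicate 2. Without replicates 1 and 2 at 100 ng/ml it was -0.40 and -0.62. The Parp14 call was lost without 100 ng/ml replicate 1 (0.0612), the Gbp7 call without untreated replicate 1 (0.0514), untreated replicate 2 (0.0508), 30 ng/ml replicate 1 (0.168), 100 ng/ml replicate 1 (0.156) or 100 ng/ml replicate 2 (0.0759), and in a fit of those 2 groups alone (0.065). The Ddx58 call was lost without untreated replicate 1 (0.0684), untreated replicate 2 (0.068), 10 ng/ml replicate 1 (0.0672), 10 ng/ml replicate 2 (0.0642), 30 ng/ml replicate 1 (0.213), 100 ng/ml replicate 1 (0.214) or 100 ng/ml replicate 2 (0.0506), with no low-count filter (0.067) and in a fit of those 2 groups alone (0.0962).

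The 2 libraries at 30 ng/ml differed over most of the 39 genes. Replicate 1 was higher than replicate 2 in 37 of them, with a median log2 difference of 0.63, or 1.55-fold, where the median over all 17360 genes was 0. Of the 39 genes 13 differed by more than 1 on the log2 scale in this direction, beside 4.41% of all genes. Oas1g, which passed the filter only through these libraries, is 1 of those 13 and 1 of the 37. It is also part of the OAS family median below. The widest gaps were those of Oas1a (2.19), Ifi44 (1.87), Mx2 (1.69), Ifit3b (1.57) and Ifit1 (1.53). In Isg20 and Mx1 replicate 2 was the higher one, by 0.18 and 0.38. By role the median difference was 1.08 in the ISG15 system, 0.93 in the OAS family, 0.61 in the GTPases, 0.60 in the effectors, 0.55 in the sensors and 0.30 in the transcription factors.

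Set against the untreated range, replicate 1 at 30 ng/ml had 17 of the 39 genes above both untreated libraries, 17 below both and 5 between, beside 41.7% and 40.0% of all genes above and below. Replicate 2 of the same dose had 5 above and 30 below, beside 41.3% and 39.9%. Oas1g was 1 of the genes above in each of these libraries, through which alone it passed the filter. In the other doses the 39 genes lay mostly below both untreated libraries, 26 and 32 of them in replicates 1 and 2 at 10 ng/ml, and 38 and 32 at 100 ng/ml, beside 42.0%, 41.0%, 37.1% and 36.0% of all genes. The summed level of the 39 genes was 1482 and 1260 CPM untreated, 1033 and 852 at 10 ng/ml, 1478 and 939 at 30 ng/ml, and 801 and 973 at 100 ng/ml. Replicate 1 at 30 ng/ml thus had a summed level inside the untreated range, and the other 5 TWEAK libraries were lower.

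What the comparison with untreated cells shows at 30 ng/ml therefore turns on the library kept. With replicate 2 alone standing for that dose, the median change of the 39 genes was -0.65 and 32 changes were below 0. With replicate 1 alone, the median was 0.013 and 19 changes were below 0. In these fits the lone library was assumed to vary like those of the other groups.

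The same genes also differed between libraries of the other groups, by less. In untreated cells replicate 1 was higher in 31 of the 39, with a median of 0.21, at 10 ng/ml in 33 with a median of 0.26, and at 100 ng/ml replicate 1 was lower in 32 with a median of -0.35. Over the 39 genes the differences at 10 and at 30 ng/ml correlated with Pearson's r = 0.60, and those at 30 and 100 ng/ml with r = -0.28. These are descriptions over genes that share libraries and are not independent.

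**Figure D4:**
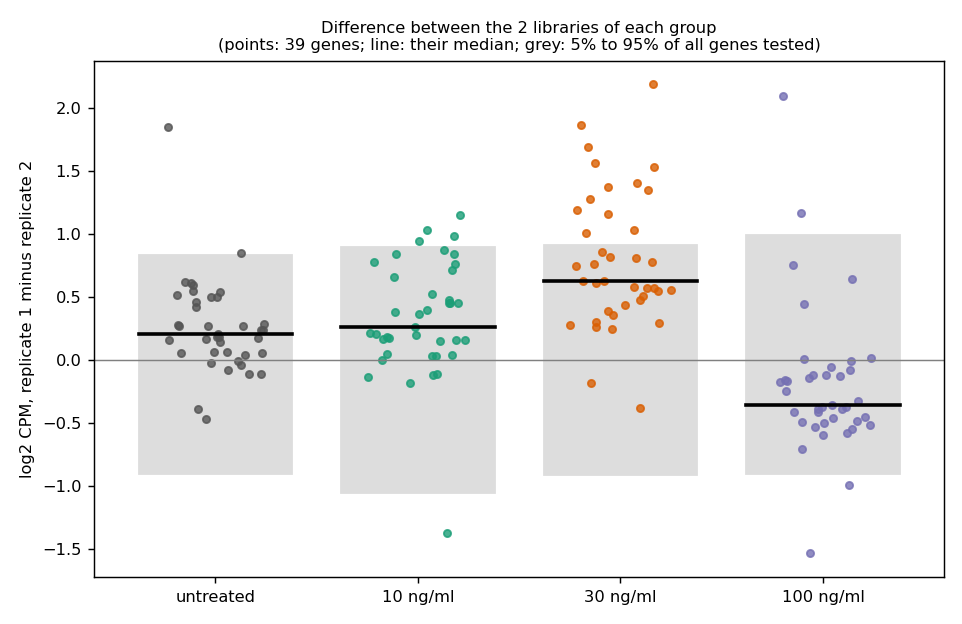
Log2 CPM of replicate 1 minus replicate 2 in each group, with a point for each of the 39 genes, a line at their median and a grey box from the 5% to the 95% point of all 17360 genes. At 30 ng/ml 37 of the 39 points lie above 0 and their median is 0.63, while at 100 ng/ml 32 lie below 0.

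Ranked over all 17360 genes, 0 of the 100 with the largest excess in replicate 1 at 30 ng/ml were members and 0 came from a wider list of interferon-induced genes. Among the 11157 genes at a mean of at least 5 CPM, 9 of the 100 with the largest excess in replicate 1 at 30 ng/ml were members, and 2 more came from the wider list. Outside the interferon lists the largest excess in replicate 1 was in Eif3j2, Pcdhga9, Lrrc8d, C1rb and Dnal1, and the largest in replicate 2 in Hist2h2aa1, Pcdhga4, Pcdhgb8, Trex1 and Zfp180. The wider list of 73 interferon-induced genes, of which 67 were tested, had replicate 1 higher in 60 and a median difference of 0.325. Macrophage markers summed to 66.6 and 54.0 CPM in replicates 1 and 2 at 30 ng/ml and plasmacytoid dendritic cell markers to 561 and 459. The latter list holds Bst2, itself a member, and Tcf4 and Spib, while Siglech and Klk1 were at 0 counts in both libraries. The part of these markers in the difference between the replicates was not tested.

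Of the wider pathway, the ligands were nearly absent: Ifnb1, which encodes interferon beta, had 0 counts in all 8 libraries, and of 21 interferon genes only Ifnz passed the filter, uncalled, at or under 0.514 CPM. With 0 counts Ifnb1 may have stood at up to between 0.0590 and 0.0805 CPM, for counting error only. The counts of called genes in the pathway lists stand beside 15.0% of all genes called higher and 14.2% called lower at 10 ng/ml, and 12.6% and 10.7% at 30 ng/ml. Of 11 receptor and JAK-STAT genes 5 rose and 1 fell at 10 ng/ml, 4 rose and 1 fell at 30 ng/ml, and none was called at 100 ng/ml, where 5 had an unadjusted p under 0.05.

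Among the receptors of the pathway, Ifnar2 stood at 128 and 126 CPM in the untreated libraries, 126 and 122 at 10 ng/ml, 128 and 126 at 30 ng/ml and 129 and 136 at 100 ng/ml, and was not called. Ifnar1, the other subunit for type I interferons, stood at 106 and 128 CPM in the untreated libraries, 146 and 177 at 10 ng/ml, 141 and 159 at 30 ng/ml and 140.1 and 144 at 100 ng/ml, and rose at 10 ng/ml, by 0.46 ± 0.12 (SE, adjusted p = 0.0242). Ifngr1 and Ifngr2, the receptor of interferon gamma, rose by 1.39 ± 0.09 (SE, adjusted p = 2.62e-05) and 1.04 ± 0.07 (SE, adjusted p = 3.94e-05) at 10 ng/ml. Its kinase Jak2 stood at 132 and 129 CPM in the untreated libraries, 363 and 372 at 10 ng/ml, 375 and 318 at 30 ng/ml and 184 and 164 at 100 ng/ml, a change of 1.49 ± 0.09 (SE, adjusted p = 2e-05) at 10 ng/ml and 1.41 ± 0.09 (SE, adjusted p = 4.2e-05) at 30 ng/ml. Stat3 fell at 10 ng/ml, by 0.35 ± 0.06 (SE, adjusted p = 0.00217).

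Of 7 other interferon regulatory factors 5 were tested, and at 10 ng/ml 3 rose and 1 fell. Irf1, which can bind ISRE-like sites without STAT proteins, stood at 53.5 and 58.0 CPM in the untreated libraries, 107 and 103 at 10 ng/ml, 122 and 93.1 at 30 ng/ml and 49.96 and 56.5 at 100 ng/ml, and changed by 0.92 ± 0.13 (SE, adjusted p = 0.00133) at 10 ng/ml and 0.95 ± 0.13 (SE, adjusted p = 0.00143) at 30 ng/ml, with no call at 100 ng/ml. Irf8 rose by 2.77 ± 0.31 (SE, adjusted p = 0.000369) and Irf5 by 1.93 ± 0.29 (SE, adjusted p = 0.00169), and Irf3, which starts interferon transcription after viral sensing, fell by 0.37 ± 0.10 (SE, adjusted p = 0.0303), all at 10 ng/ml. Of 12 genes that lead from the sensors to interferon production 2 rose and 1 fell at 10 ng/ml, Tmem173 (STING) by 1.08 ± 0.13 (SE, adjusted p = 0.000513), Tank by 0.51 ± 0.10 (SE, adjusted p = 0.00591), and Nlrx1 with -0.44 ± 0.12 (SE, adjusted p = 0.0306). Traf3 was called at 30 ng/ml, 1.34 ± 0.37 (SE, adjusted p = 0.0330), with libraries at 92.5 and 41.4 CPM. Of 10 negative regulators 3 rose and 3 fell at 10 ng/ml, among them the phosphatase Ptpn2 by 0.66 ± 0.08 (SE, adjusted p = 0.000671) and Nlrc3 by 0.66 ± 0.16 (SE, adjusted p = 0.0186) upwards, and Ptpn1 and Ptpn11, with log2 changes of -0.34 ± 0.08 (SE, adjusted p = 0.0117) and -0.25 ± 0.06 (SE, adjusted p = 0.0143).

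In the wider list of interferon-induced genes calls went both ways. At 10 ng/ml 10 of 67 rose (14.9%, beside 15.0% of all genes) and 15 fell (22.4%, beside 14.2%). In the 30 ng/ml libraries 13 rose (19.4%, beside 12.6%) and 3 fell (4.48%, beside 10.7%), and at 100 ng/ml Slfn2 rose and Shisa5 fell. Whether the 2 lists differ was not tested. Slfn2, a regulator of T cell quiescence, stood at 12.2 and 12.9 CPM in the untreated libraries, 142 and 129 at 10 ng/ml, 136 and 102 at 30 ng/ml and 25.7 and 27.8 at 100 ng/ml, with a change of 3.44 ± 0.14 (SE, adjusted p = 4.49e-06) at 10 ng/ml. Gbp4 stood at 0.280 and 0.241 CPM in the untreated libraries, 3.12 and 5.35 at 10 ng/ml, 5.09 and 3.04 at 30 ng/ml and 0.578 and 0.725 at 100 ng/ml, and Ifi205 rose by 2.70 ± 0.27 (SE, adjusted p = 0.000188) at 10 ng/ml. Lgals9, which encodes galectin-9, fell by 0.90 ± 0.10 (SE, adjusted p = 0.000347). Cxcl10, the chemokine that draws CXCR3-bearing lymphocytes, was named after its values were seen: it stood at 3.16 and 4.73 CPM in the untreated libraries, 44.1 and 42.8 at 10 ng/ml, 62.6 and 24.9 at 30 ng/ml and 6.16 and 5.88 at 100 ng/ml, and changed by 3.46 ± 0.41 (SE, adjusted p = 0.000545) at 10 ng/ml. Its 2 libraries at 30 ng/ml differed in the same direction as most of the 39 genes.

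**Figure D5:**
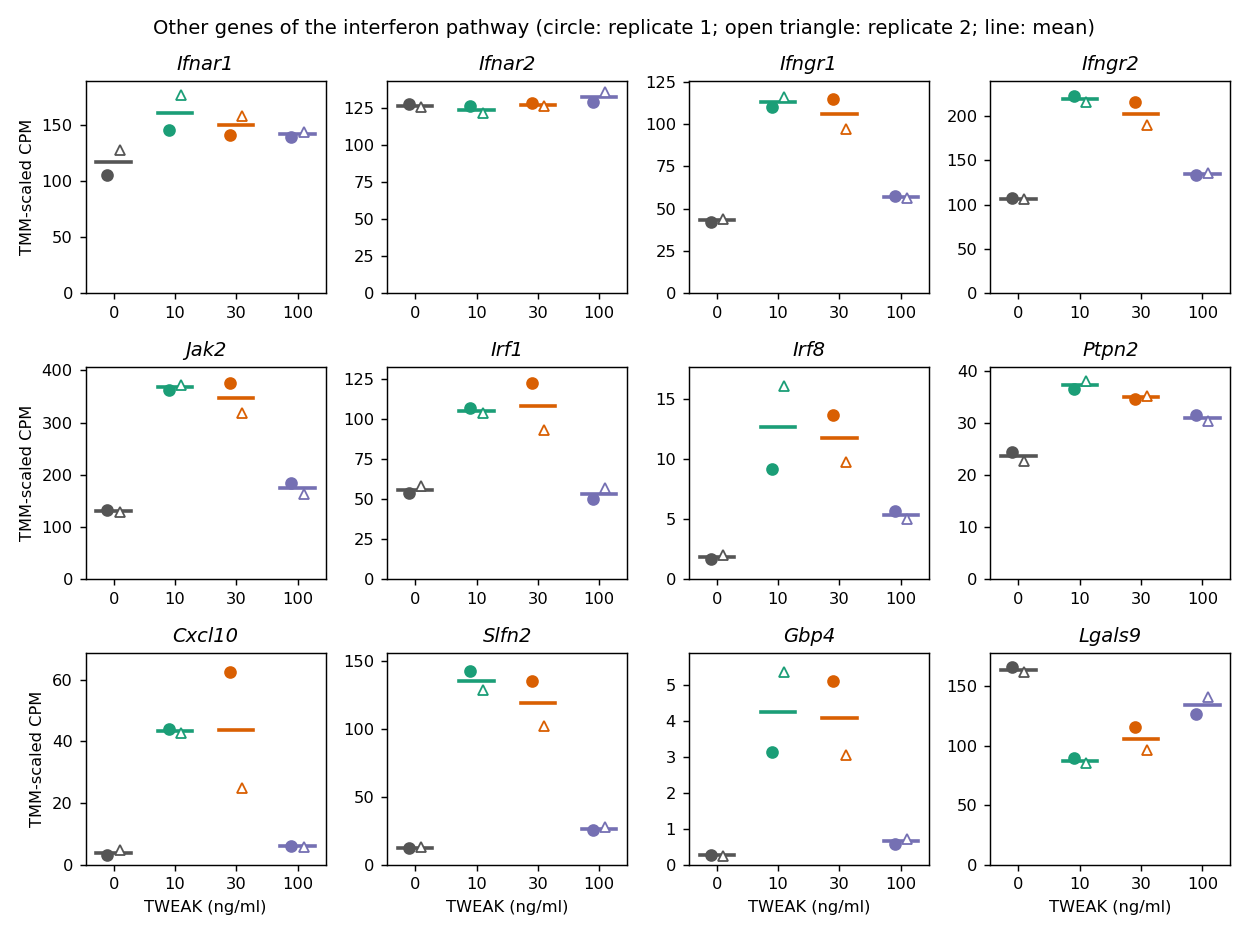
TMM-scaled CPM of 12 other genes of the interferon pathway in every library, against TWEAK dose in ng/ml, with a filled circle for replicate 1, an open triangle for replicate 2 and a line for the group mean. Jak2, Ifngr1, Irf1 and Slfn2 are higher at 10 and 30 ng/ml than untreated in every library, Ifnar2 stays between 122 and 136 CPM, and Lgals9 is lower.

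For the ligand and receptor of the treatment itself, Tnfrsf12a stood at 18.6 and 19.7 CPM in the untreated libraries, 33.3 and 32.3 at 10 ng/ml, 29.0 and 40.0 at 30 ng/ml and 21.6 and 22.8 at 100 ng/ml, and Tnfsf12 at 33.4 and 33.6 CPM in the untreated libraries, 25.6 and 23.6 at 10 ng/ml, 23.7 and 27.1 at 30 ng/ml and 35.9 and 31.3 at 100 ng/ml. Tnfrsf12a was above the untreated range in all 6 TWEAK libraries, and Tnfsf12 was below it at 10 and 30 ng/ml.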

How the data were processed

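RNA was sequenced from 8 libraries, 2 in each of 4 groups, and groups were taken from the sample titles. The authors deposited 1 table of raw counts per gene row. The submitters' processing notes name the mm10 build, STAR and StringTie, without versions or roles. The sources used here do not give the counting program, the annotation or whether strand was used. Rows without a symbol (3225, with 0.168% to 0.178% of counts) were left out. Total counts were 37345575 to 50896445 per library. A chi-square of the counts divided by its degrees of freedom was 22.7 to 27.6 between the libraries of a group, above the 1 of pure sampling noise.

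Genes that passed filterByExpr by group (17360) were tested with edgeR 4.0.16 (quasi-likelihood F test, TMM scaling, all 8 libraries in 1 fit, 4 residual degrees of freedom) in R 4.3.3. P-values are two-sided and Benjamini-Hochberg adjusted over all tested genes, with a threshold of 0.05. Each SE is the log2 change divided by the root of F, an approximation. Differences between libraries of a group use log2 CPM with a prior count of 2. Alternatives were DESeq2 1.42.0, limma-voom 3.58.1, other scalings and filters, the replicate block, a fit of only the groups compared, and leaving out each library.

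The members and lists were chosen with earlier results of these data known. Values in every library were given for members called against untreated cells, those with the 3 highest and 3 lowest changes at a dose, and the 5 with the widest gap at 30 ng/ml. From the pathway lists up to 4 called genes each were named, with Ifnb1, Ifnar1, Ifnar2, Irf1 and Irf3, and from outside them Tnfsf12, Tnfrsf12a and the 5 genes with the widest gap in either direction. A further gene that the rule names is not reported here. Positions are GENCODE M21 (mm10), and promoters are RefSeq (GRCm38.p6). Limits from counts cover counting error only.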

Additional observations from a re-analysis of the deposited data

Results flagged for a closer look

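These members differed between doses in a direct test of the difference (edgeR, adjusted over all tested genes). At 100 against 10 ng/ml 10.3% of the 39 genes were called higher and 5.13% lower, beside 10.7% and 11.2% of all genes. At 100 against 30 ng/ml 2.56% were called higher and 7.69% lower, beside 7.15% and 8.04%. The 39 genes were thus not called more often than all genes. Between 100 and 10 ng/ml the log2 difference was 1.16 for Ifit2, 1.11 for Ifi27l2a, 0.82 for Isg20 and 0.81 for Iigp1, all higher at 100 ng/ml, and -0.69 for Parp14 and -0.63 for Ddx58, lower at 100 ng/ml. Between 100 and 30 ng/ml it was 0.67 for Ifit2, -0.92 for Parp14, -0.69 for Ddx58 and -0.50 for Gbp7. Ifit2 was thus higher at 100 ng/ml than at both other doses, and Parp14 and Ddx58 lower. Only the 2 Ifit2 differences were kept with each library left out.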

How the results depend on the processing

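DESeq2 size factors, library totals without TMM and a mean of at least 1 CPM left each count of called members within 1.5 times its value. At 30 ng/ml against untreated 9 members were called by DESeq2, 9 by limma-voom and 3 in a fit of only the groups compared. Against untreated at 100 ng/ml 8 were called by DESeq2, 3 by limma-voom, 5 with only the groups compared, 0 with no low-count filter and 0 with the replicate block. DESeq2 called 1 at 30 against 10 ng/ml. At 100 against 30 ng/ml DESeq2 called 10, a fit of only the groups compared 2 and the replicate block 2. Counts of called members under an alternative or with a library left out are not set beside the share of all genes called in that setting. The cause of these differences was not tested.

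With single libraries left out, the count ranged from 9 to 20 at 10 ng/ml, from 1 to 10 at 30 ng/ml, from 0 to 5 at 100 ng/ml and from 5 to 18 over the mean of the doses. It ranged from 1 to 7 at 100 against 10 ng/ml, from 1 to 14 at 100 against 30 ng/ml, and was 0 throughout at 30 against 10 ng/ml. Of the 15 calls at 10 ng/ml 6 were kept under all alternatives and left-out libraries (Ifit2, Ifit3, Isg20, Stat2, Ifi27l2a and Iigp1), of the 5 at 30 ng/ml 1 was (Ifit2), and of the 1 at 100 ng/ml none. Over 273 member changes (39 genes in 7 contrasts) and 16 settings the sign turned 117 times, 108 of them with a library left out and 42 without replicate 1 at 30 ng/ml, and 0 of these changes were called on either side. The replicate differences at 30 ng/ml had the same median, 0.63, with library totals and with a prior count of 0.5.

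The labels do not say what the replicate number marks. Over 17360 genes the differences between replicates 1 and 2 correlated between groups with r from -0.046 to 0.028. Over the 39 genes Pearson's r ran from -0.376 (10 with 100 ng/ml) to 0.598 (10 with 30 ng/ml). These values cannot decide whether the numbers pair libraries. With the replicate block 17 members were called at 10 ng/ml, Parp14 among them as higher, and 7 at 30 ng/ml. The Ddx58 calls between 100 and 10 ng/ml (adjusted p = 0.0661) and 100 and 30 ng/ml (0.0675) and the Gbp7 calls at 100 ng/ml against untreated (0.0937) and 30 ng/ml (0.0509) then missed the threshold. With 2 libraries a group, 4 residual degrees of freedom limit the test. Oas1g, Oas3 and Mx1 stayed under 1 CPM in every library, where depth limits what can be seen, and have no value under the filter of at least 1 CPM. For the mean of the doses no fit of only the groups compared was run, since it uses all groups.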
